A study of Mus musculus with 4 samples.

Results

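The regions described here are places where both lines of mouse rosette stem cells carried H3K4me3 but only one of the lines had a called H3K27me3 region over it. They were chosen from the deposited lists of called regions: an H3K4me3 region of the line CGR8, on chromosomes 1 to 19, that overlapped an H3K4me3 region of the line R1 by at least 1 bp and that overlapped H3K27me3 in CGR8 or in R1 but not in both. A block of chromosome 1 from 104 to 124 Mb, where R1 has many H3K27me3 calls that CGR8 lacks, was left out, with 70 H3K4me3 regions. Of the 25241 H3K4me3 regions of CGR8, 22007 met the conditions on position and overlap, and 1140 of these (5.18%) had H3K27me3 in a single line. In 556 it was called in CGR8 (2.53% of the 22007) and in 584 in R1 (2.65%). The remaining regions had H3K27me3 in both lines (6068) or in neither (14799).

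Rosette stem cells are pluripotent cells held between the naive and the primed state. The labels describe CGR8 as a 129/Ola line and R1 as a 129 line. Both were kept as embryonic stem cells in the same N2B27 medium with LIF for 8 days before fixation. It held PD325901 at 1 µM and IWP2 at 2 µM, so every library carries that treatment. IWP2 blocks the secretion of WNT proteins and PD325901 inhibits MEK. The 4 groups are CGR8 H3K27me3, R1 H3K27me3, CGR8 H3K4me3 and R1 H3K4me3, with 1 library each. No difference between the lines therefore has a replicate check or a p-value, and a line cannot be told apart from its culture or its library. The lists give no expression and no gene names, so the cell state in the labels was not checked against markers here.

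H3K4me3 is laid down at active promoters and at most promoters rich in CpG, including many that are silent. H3K27me3 is the mark of Polycomb repressive complex 2, which spreads along chromatin from such sites in broad domains. Promoters that carry both marks are called bivalent and are typical of developmental regulators in pluripotent cells. A region with H3K4me3 in both lines and H3K27me3 in a single line is a place where the lists disagree on whether the marks overlap. They disagree either in where a domain ends or in whether there is a domain at all. Whether the regions are promoters was not checked here.

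A deposited score belongs to its own list, so scores are given below as multiples of the lowest score of the list, and H3K4me3 as a percentile rank in the list of its line, where 100 is the highest score. The lowest H3K27me3 score was 70.6 in the CGR8 list of 14575 regions and 59.4 in the R1 list of 12511 regions. The lists state no depth. If scores are sums of Poisson terms over windows, a form inferred from the values, the shortest regions give mean reads in a window of 200 bp of 2.11 for H3K27me3 in CGR8 and 1.92 in R1. The H3K4me3 libraries had 0.740 in CGR8 and 0.706 in R1. The R1 H3K27me3 value rests on 2 regions, and the next best value met 1 of them. A line with no call may still carry the mark below the limit of its list. Positions refer to build mm9 with bases counted from 1, and no gene name or sequence was assigned to them.

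H3K27me3 called in CGR8 alone lay mostly at weak H3K4me3 regions, and H3K27me3 called in R1 alone mostly at strong ones. The median H3K4me3 percentile of the CGR8-only regions was 36.7 in CGR8 and 36.5 in R1. For the R1-only regions it was 61.9 in CGR8 and 59.1 in R1, against 55.4 and 54.6 for all 22007 shared regions. Both H3K4me3 lists thus gave the same order, so the contrast between the directions does not hang on which line's H3K4me3 is read. In the upper 50% of the CGR8 H3K4me3 list lay 184 of 556 CGR8-only regions (33.1%) and 374 of 584 R1-only regions (64.0%), beside 55.8% of all shared regions. No test was made, since each line and mark has 1 library and regions are not replicates.

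The contrast ran through the whole range of H3K4me3 strength. With the shared regions divided into 10 classes by CGR8 H3K4me3 score, the share with CGR8-only H3K27me3 went from 5.13% in the lowest class (113 of 2201, 95% exact binomial interval 4.25% to 6.14%) to 0.909% in the highest (20 of 2201, 0.556% to 1.40%). It was lower in each class than in the class before it. The share with R1-only H3K27me3 was 1.68% in the lowest class (37 regions, 1.19% to 2.31%), 3.68% in class 7 (81 regions, 2.93% to 4.55%) and 2.50% in the highest (55 regions, 1.89% to 3.24%). These intervals cover counting error only. Regions with H3K27me3 in both lines followed neither course, with the highest share in class 5 (44.1%) and the lowest in class 10 (8.09%). Classes made from the R1 H3K4me3 scores gave 4.13% and 0.818% for CGR8-only regions in the lowest and highest class and 2.09% and 2.23% for R1-only regions. In these classes the CGR8-only share did not fall at each step. It was 4.54% in class 2, and it rose from 1.73% in class 6 to 2.14% in class 7.

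**Figure D1:**
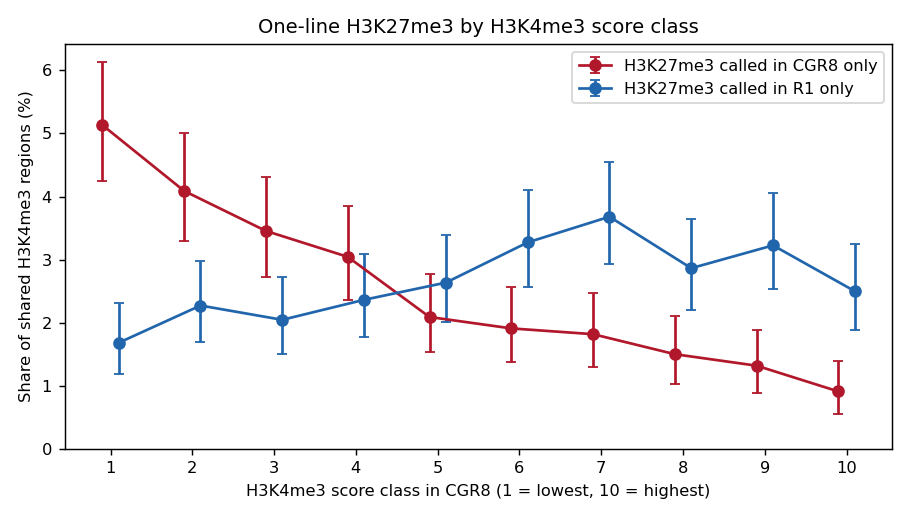
Share of shared H3K4me3 regions (%) with H3K27me3 called in CGR8 only (red) or in R1 only (blue), by CGR8 H3K4me3 score class from 1 (lowest) to 10 (highest); points are shares of about 2200 regions and bars are 95% exact binomial intervals, which cover counting error only. CGR8-only H3K27me3 goes from 5.13% to 0.909%, and R1-only H3K27me3 has its highest share, 3.68%, in class 7.

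Width followed the same division. The median width of the H3K4me3 region was 1600 bp for CGR8-only regions in both lines, with 10% of them above 3000 bp. R1-only regions had a median of 2200 bp in CGR8 and 2000 bp in R1, with 10% above 4000 bp in CGR8. All shared regions had a median of 2000 bp in each line. Score per kb, which takes width out, still differed, at 111 in CGR8 for CGR8-only regions, 327 for R1-only regions and 236 for all shared regions.

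Most of these H3K27me3 calls stood close to the lowest score of their list. The H3K27me3 region over a CGR8-only region had a median score of 1.45 times the lowest of the CGR8 list, with the middle 50% between 1.18 and 2.20 times. The corresponding R1-only values were 1.42, and 1.15 to 1.98. Over the 6068 shared regions with H3K27me3 in both lines the medians were 5.10 in CGR8 and 5.42 in R1, and over the whole lists 1.87 and 1.95. Scores under 1.5 times the lowest were found for 297 of 556 CGR8-only regions (53.4%) and for 327 of 584 R1-only regions (56.0%), beside 8.59% and 7.42% of regions with H3K27me3 in both lines. These values belong to the calls that the regions were chosen by and are a description.

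The same can be read from the scores outward. Among shared H3K4me3 regions whose CGR8 H3K27me3 scored under 1.5 times the lowest, 297 of 818 (36.3%, 33.0% to 39.7%) had none in R1. From 2 to 3 times the lowest it was 75 of 871 (8.61%), and from 10 times upward 20 of 1665 (1.20%, 0.735% to 1.85%). In R1 these shares were 327 of 777 (42.1%, 38.6% to 45.6%), 76 of 856 (8.88%) and 14 of 1723 (0.813%, 0.445% to 1.36%). A single-line call thus grew rarer with score in each list, and was still found at the highest scores. Members just inside the limit of a list were an H3K4me3 region on chromosome 12 from 114046401 to 114048200, whose CGR8 H3K27me3 scored 70.602 against a lowest score of 70.584, and one on chromosome 6 from 124859601 to 124860600, whose R1 H3K27me3 scored 59.424 against 59.406. By overlap, 81 CGR8-only and 40 R1-only regions met H3K27me3 in a single window of 200 bp. Just outside, 70 regions with H3K27me3 in neither line touched a CGR8 H3K27me3 region without overlap, and 29 touched one of R1.

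**Figure D2:**
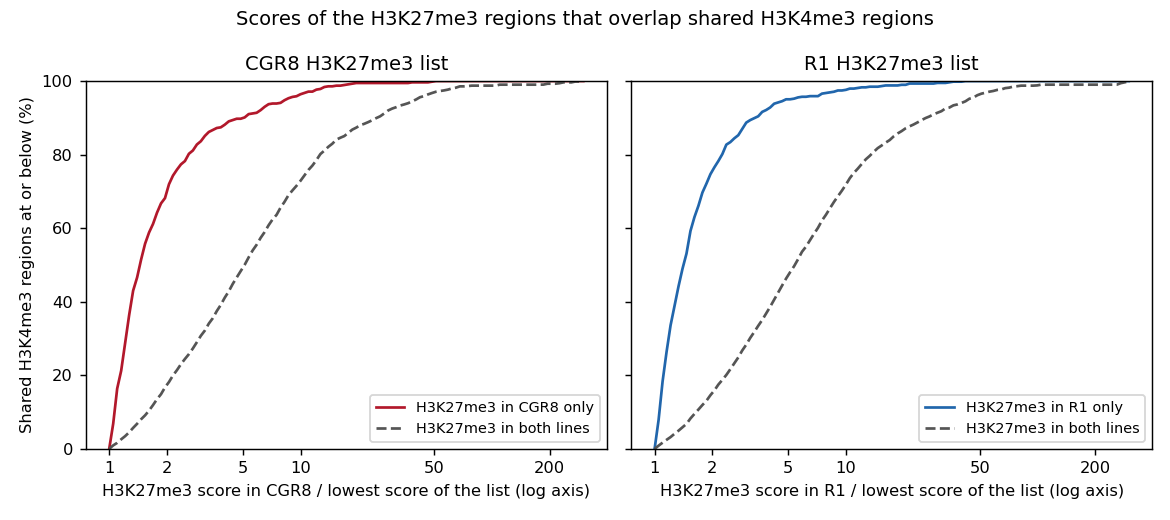
Cumulative share (%) of shared H3K4me3 regions by the score of the overlapping H3K27me3 region over the lowest score of its list (log axis), for CGR8 (left) and R1 (right); solid lines are regions with H3K27me3 in that line only and dashed lines regions with it in both. The solid lines reach 50% at 1.45 (CGR8) and 1.42 (R1), the dashed lines at 5.10 and 5.42.

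The 2 directions also differed in the shape of the H3K27me3 region. Over R1-only regions it had a median width of 4400 bp, 2.07 times the width of the H3K4me3 region, and 268 of 584 (45.9%) were at most 4 kb wide. Over CGR8-only regions the median was 6400 bp, 4.27 times the H3K4me3 width, and 93 of 556 (16.7%) were at most 4 kb. Weak calls are narrow in general and R1 calls narrower than those of CGR8, so the same was read among scores under 1.5 times the lowest. There 206 of 327 R1-only regions (63.0%) had H3K27me3 of at most 4 kb, beside 272 of 450 regions with H3K27me3 in both lines (60.4%) and 32.4% of all 4095 such H3K27me3 regions of R1. In CGR8 it was 82 of 297 (27.6%), 245 of 521 (47.0%) and 17.3% of 5283. In R1 the first and second shares lay close together, while in CGR8 the first was lower than the second.

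H3K4me3 strength among low H3K27me3 scores went opposite ways in the lines, though scores were not matched beyond a shared upper limit. Among H3K27me3 scores under 1.5 times the lowest, the median CGR8 H3K4me3 percentile was 38.5 for CGR8-only regions and 56.4 for regions with H3K27me3 in both lines. With R1 scores it was 62.0 for R1-only regions and 47.1 for regions with H3K27me3 in both. The R1-only regions with H3K27me3 of at most 4 kb had the strongest H3K4me3, with a median percentile of 69.0 in CGR8 and 67.1 in R1, and 92 of these 268 (34.3%) stood above the percentile of 80. In 94 of the 268 the H3K27me3 region was narrower than the H3K4me3 region it overlapped, against 16 of 93 such CGR8-only regions. The centres of the H3K27me3 and H3K4me3 regions lay a median of 1300 bp apart for these narrow R1 calls and 2200 bp apart for the wider ones. For CGR8-only regions these medians were 1600 bp and 2700 bp. A narrow region that overlaps cannot have its centre as far away as a wide one can, so the split by width itself bears on these distances.

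The regions fell into 2 kinds by what the other line had nearby. In 178 CGR8-only regions (32.0%) and 101 R1-only regions (17.3%), the H3K27me3 region over the H3K4me3 region did overlap H3K27me3 of the other line, but elsewhere along its length. Here both lists had a called domain and differed in its bounds. The other line's calls covered a median of 63.3% of the CGR8 domain and 73.3% of the R1 domain. The nearest H3K27me3 of the other line, within that domain or outside it, lay a median of 600 bp and 200 bp from the H3K4me3 region. In 172 of the 178 and 97 of the 101, those calls of the other line that overlapped the domain lay to a single side of the H3K4me3 region. It thus stood beyond the end of the stretch of the domain called in both lines. Calls of the other line outside the domain were not counted here and could lie on the opposite side. In 6 and 4 cases they lay on both sides, so that it filled a gap. These domains scored higher than the rest, with medians of 2.83 and 3.19 times the lowest score. They were also wider. Among CGR8-only regions the H3K27me3 width had a median of 9900 bp for this kind and 5700 bp for the rest. Among R1-only regions it was 8600 bp and 3800 bp. Median score per kb, which takes width out, was closer: 22.1 and 17.3 for CGR8-only regions, then 23.7 and 21.1 for R1-only regions. How much of the higher score goes with width was not tested.

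In the remaining 378 CGR8-only regions (68.0%) and 483 R1-only regions (82.7%), the whole H3K27me3 region had no partner in the other line. Their scores were low, with medians of 1.28 and 1.31 times the lowest, and 269 (71.2%) and 317 (65.6%) were under 1.5 times it. Only 2 CGR8-only regions and 1 R1-only region of this kind had a score of 5 times the lowest or more, against 54 and 28 where the domain was shared. The nearest H3K27me3 of the other line lay a median of 39000 bp and 37600 bp away. The strong H3K4me3 of the R1-only regions belonged to this kind, with a median CGR8 percentile of 65.0 where the H3K27me3 was of R1 alone and 42.2 where it was part of a shared domain. For CGR8-only regions these medians were 34.9 and 40.4.

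Counted over both kinds, 200 CGR8-only regions (36.0%, 95% exact binomial interval 32.0% to 40.1%) and 144 R1-only regions (24.7%, 21.2% to 28.4%) had H3K27me3 of the other line within 5 kb. This order turned, to 27.6% and 30.0%, when both H3K27me3 lists were limited at the higher of their lowest scores. Of the 200 and 144 regions, 35 and 42 touched it without sharing a base. At the far end, 169 (30.4%) and 203 (34.8%) lay more than 50 kb from any H3K27me3 of the other line. No share over all shared H3K4me3 regions is set beside these distances, so they do not show nearness or remoteness particular to these regions. The bounds of the H3K4me3 region mattered little: read by the bounds of the R1 partner in place of those of CGR8, 503 of 556 CGR8-only regions (90.5%) and 549 of 584 R1-only regions (94.0%) kept their class.

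**Figure D3:**
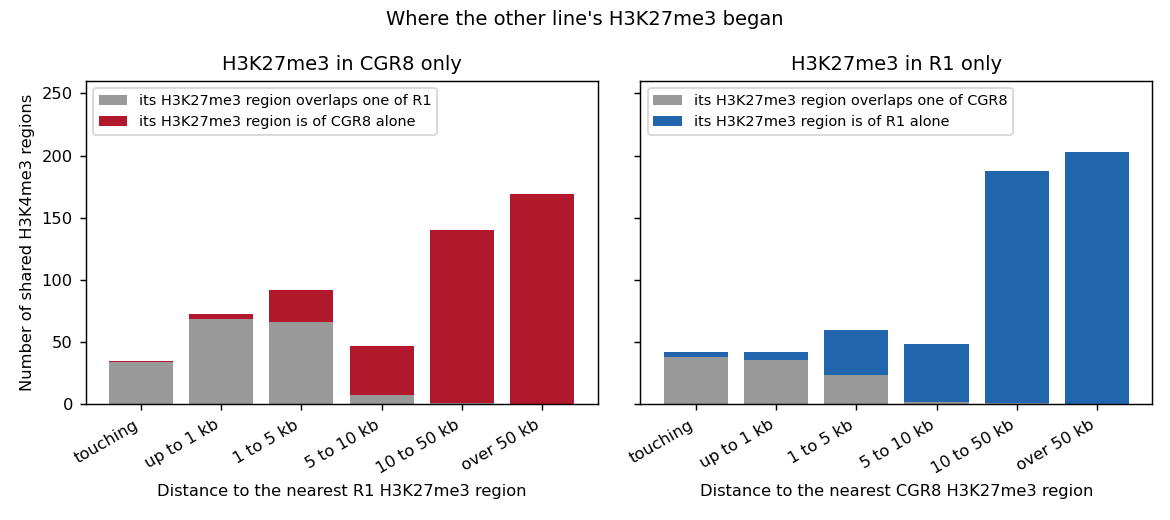
Number of shared H3K4me3 regions by distance to the nearest H3K27me3 region of the other line, for H3K27me3 in CGR8 only (left) and in R1 only (right); grey bars are regions whose H3K27me3 region overlaps one of the other line elsewhere, coloured bars those whose H3K27me3 region is of a single line. Grey bars lie almost wholly within 5 kb (169 of 178 and 98 of 101), and 169 and 203 regions lie over 50 kb away.

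The highest-scoring cases were mostly ends of domains called in both lines. On chromosome 5 an H3K4me3 region from 120904201 to 120905400 stood at the end of a CGR8 H3K27me3 domain of 47.6 kb, from 120857401 to 120905000, which scored 50.3 times the lowest. R1 calls covered 87.0% of that domain but stopped short of the H3K4me3 region, which was weak in both lines (percentile 5.11 in CGR8 and 5.54 in R1). On chromosome 8 a strong H3K4me3 region from 73029201 to 73036000 (percentile 99.0 and 98.9) met the last 200 bp of a CGR8 domain of 26.8 kb, scoring 46.7 times the lowest. The R1 domain there started at the same base, 73002601, scored 54.7 times the lowest of its list and ended 0.8 kb before the H3K4me3 region. This H3K4me3 region overlapped 2 of R1, and the paired one, from 73031801 to 73036400, met neither domain. The class of this site thus rests on the CGR8 bounds. On chromosome 2, by contrast, the H3K4me3 region from 33471201 to 33473000 lay wholly inside a CGR8 domain of 34.8 kb (36.8 times the lowest), of which R1 calls covered 73.0%. Further ends of CGR8 domains lay on chromosome 18 at the H3K4me3 regions from 35820801 to 35822600 and from 37981001 to 37983200, with 18.8 and 18.5 times the lowest score.

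R1 gave the mirror image. On chromosome 4 an H3K4me3 region of 0.8 kb, from 153479401 to 153480200, lay inside an R1 domain of 48.8 kb that scored 41.8 times the lowest. CGR8 calls covered 98.4% of that domain in 2 pieces, and the gap between them was the H3K4me3 region itself, which the first piece touched. On chromosome 13 the H3K4me3 region from 40817601 to 40819600 met the start of an R1 domain of 24 kb (35.7 times the lowest), and the CGR8 domain of 21.6 kb there began 1.8 kb beyond the H3K4me3 region. On chromosome 6 an H3K4me3 region from 83646001 to 83648600 lay inside an R1 domain of 28.8 kb (34.6 times the lowest), while the CGR8 domain of 19 kb began at the next base after it. H3K4me3 at that site stood at percentile 31.5 in CGR8 and 6.97 in R1. The others were on chromosome 8 from 107777201 to 107779600 (29.6 times the lowest) and on chromosome 11 from 96857401 to 96859400 (21.4 times), with CGR8 H3K27me3 2.2 kb and 3.2 kb away.

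Where the H3K27me3 region had no partner at all, the highest score was on chromosome 16. There a CGR8 domain of 42 kb, from 35478601 to 35520600, scored 12.8 times the lowest and covered the whole of an H3K4me3 region from 35488601 to 35491400. The nearest R1 H3K27me3 lay 37.6 kb away. This CGR8 domain did not stand alone: it ended 30.6 kb from the centre of the H3K4me3 region, and a second CGR8 domain, with a score of 2959, began at 32.4 kb. The nearest R1 H3K27me3 lay within the bounds of the second domain. H3K4me3 was also ranked higher in CGR8 at this site, with a score of 2304 and rank 2547 of 25241 there and a score of 1084 and rank 7139 of 24618 in R1 (percentile 89.9 and 71.0). This was not particular to the site. A neighbouring H3K4me3 region, within H3K27me3 of both lines, also scored higher in CGR8 (2454) than in R1 (1096). The next by H3K27me3 score were on chromosome 3 from 79222201 to 79223200, in a CGR8 domain of 27.8 kb (8.10 times the lowest), and on chromosome 2 from 17773201 to 17776000 (4.04 times). At both, H3K4me3 was weak, at percentiles of 16.8 and 28.6 in CGR8 and 12.0 and 22.5 in R1. On chromosome 18 the H3K4me3 regions from 54987001 to 54989000 and from 76916401 to 76917200 followed with 3.90 and 3.21 times the lowest score.

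The R1 counterpart was a pair of neighbours on chromosome 4. An H3K4me3 region from 62162601 to 62164200 lay inside an R1 H3K27me3 region of 11.4 kb (7.33 times the lowest), and one from 62180001 to 62182000 inside another of 8.2 kb (4.20 times). The nearest CGR8 H3K27me3 was 17.2 kb and 34.6 kb away. At both sites H3K4me3 was also ranked higher in R1: percentile 62.6 in CGR8 and 84.7 in R1 at the first, and 67.6 and 91.3 at the second. On chromosome 1 an H3K4me3 region from 95131801 to 95133800, with R1 H3K27me3 at 4.04 times the lowest, stood at percentile 71.2 in CGR8 and 83.2 in R1. The remaining ones of the 5 highest did not share this, with percentiles of 50.8 and 42.6 on chromosome 3 (from 87750801 to 87754600) and of 91.3 and 87.1 on chromosome 10 (from 18037601 to 18040400). Whether the differences in the marks are linked was not tested.

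**Figure D4:**
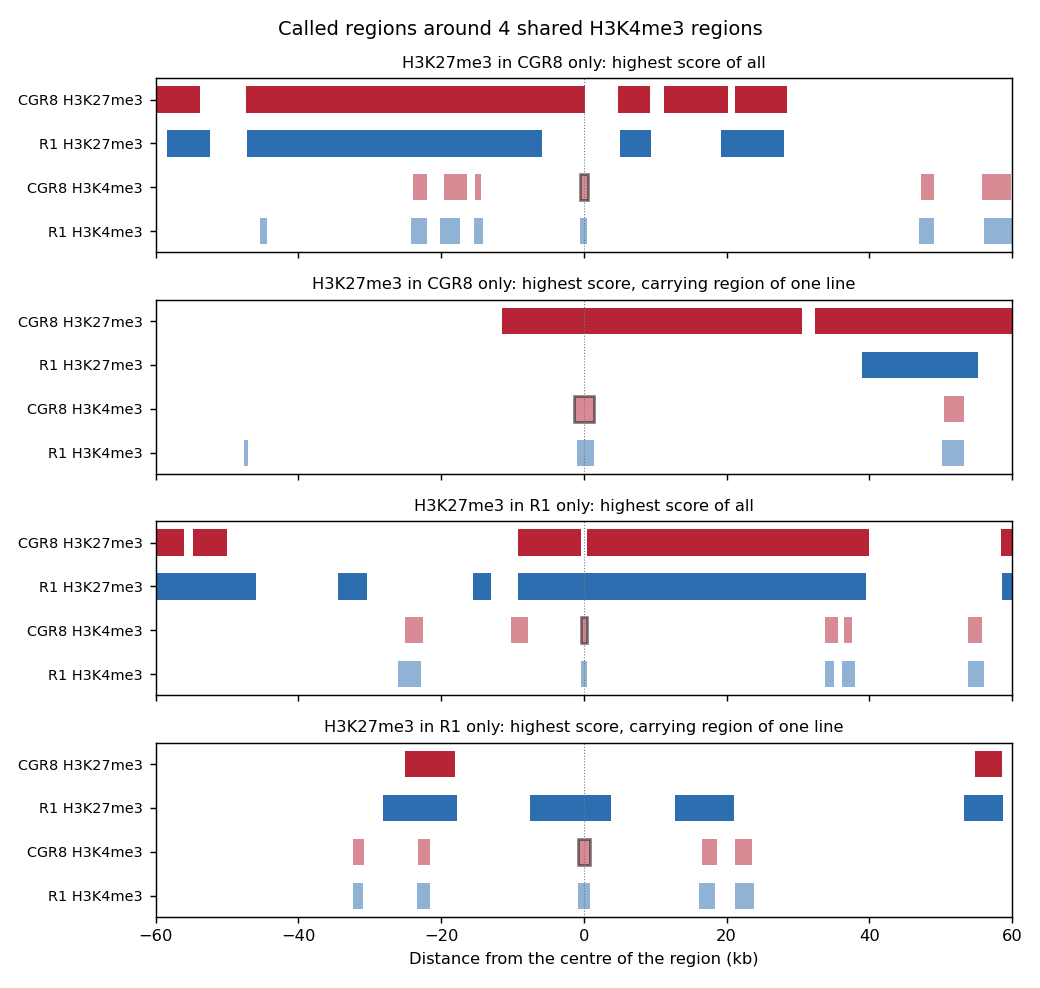
Called regions within 60 kb of 4 shared H3K4me3 regions (outlined), by distance in kb from the centre of the region: red bars are CGR8 and blue bars R1, dark for H3K27me3 and pale for H3K4me3. In the panels titled highest score of all (chromosomes 5 and 4) the H3K4me3 region lies at an end or in a gap of a domain called in both lines. In those titled carrying region of one line (chromosomes 16 and 4) the other line has no H3K27me3 over any of the domain.

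H3K4me3 itself held nearly the same rank in the lines at these sites. The rank differed by less than 10 percentile points in 463 of 556 CGR8-only regions (83.3%), 508 of 584 R1-only regions (87.0%) and 87.5% of all shared regions. The median difference, R1 minus CGR8, was -0.05 points for CGR8-only regions and -1.85 for R1-only regions, beside -0.52 for all shared regions and -0.25 for those with H3K27me3 in both lines. H3K4me3 ranked at least 10 points higher in R1 in 51 CGR8-only regions (9.17%) and 26 R1-only regions (4.45%), and 4.89% of all shared regions did. It ranked at least 10 points higher in CGR8 in 42 CGR8-only regions (7.55%) and 50 R1-only regions (8.56%), beside 7.63%. Apart from the 9.17%, these shares were near those of all shared regions. Weak regions scattered most: in the lower 50% of the CGR8 list, 10.3% of shared regions ranked at least 10 points higher in R1 and 14.5% in CGR8. There the shares were 13.4% (50 of 372) and 10.8% (40) for CGR8-only regions and 10.0% (21 of 210) and 20.0% (42) for R1-only regions. Regions with H3K27me3 in neither line had 10.2% and 18.3%, close to the R1-only values. In the upper 50% such shifts were few, with 3 of 184 CGR8-only regions and 13 of 374 R1-only regions in both directions of shift together.

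**Figure D5:**
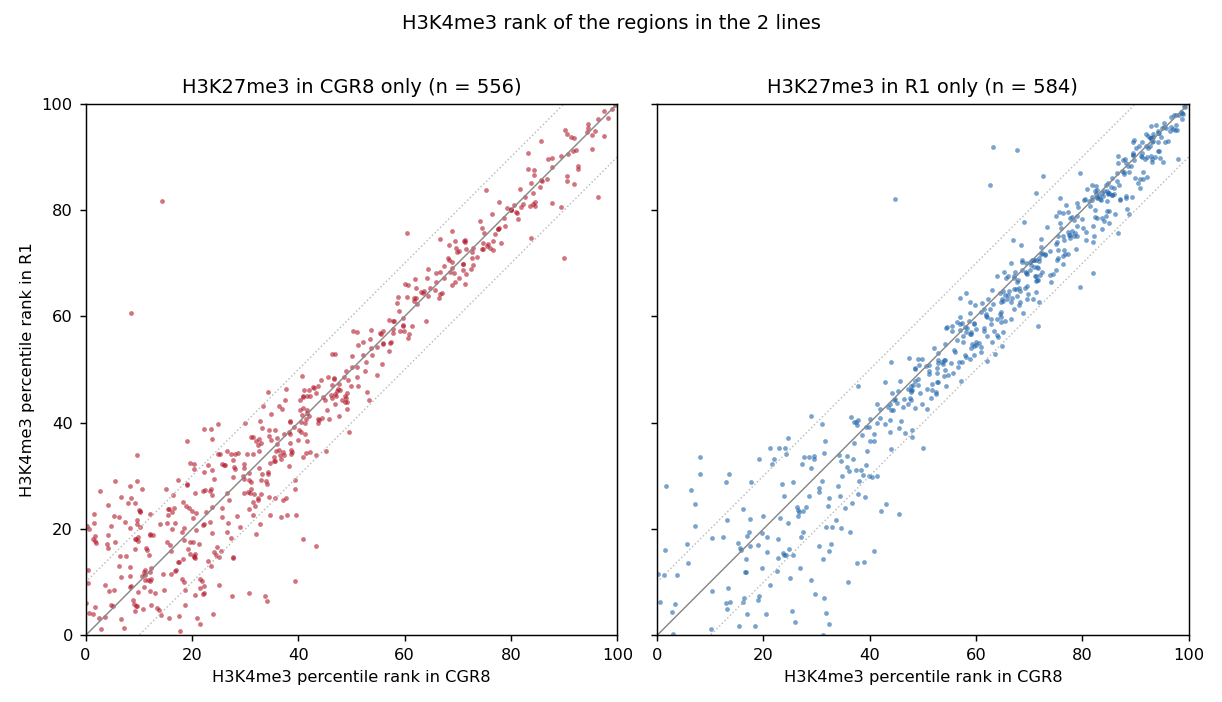
H3K4me3 percentile rank in CGR8 (horizontal) and R1 (vertical) for the 556 regions with H3K27me3 in CGR8 only (left) and the 584 with it in R1 only (right); each point is a region, the solid line marks equal rank and the dotted lines a difference of 10 points. Most points lie between the dotted lines (463 and 508), and the R1-only regions reach further up the ranks.

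The largest rank differences were of several kinds. Among CGR8-only regions H3K4me3 ranked higher in CGR8 on chromosome 10 from 34203201 to 34204600 (percentile 39.3 in CGR8 and 10.2 in R1), on chromosome 5 from 150122401 to 150124000 (34.2 and 6.52) and on chromosome 17 from 31011201 to 31012200 (43.4 and 16.8). Among R1-only regions it did so on chromosome 6 from 83186401 to 83188000 (31.2 and 0.0447), on chromosome 14 from 43800601 to 43801200 (32.4 and 2.10) and on chromosome 17 from 28511401 to 28513200 (31.7 and 4.18). At each of these 6 sites the R1 score was close to the lowest of its list, 37.3, between 37.4 and 61.5.

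In the other direction some differences went with unequal bounds. On chromosome 10 an H3K4me3 region of 1.0 kb from 128325801 to 128326800, CGR8-only, was paired with an R1 region of 4.4 kb, and its percentile was 14.4 in CGR8 and 81.8 in R1. On chromosome 4 a CGR8-only region of 1.0 kb from 43642001 to 43643000 was paired with one of 3.8 kb (8.59 and 60.6). R1-only cases were a region of 3.0 kb on chromosome 15 from 98460201 to 98463200, paired with 7.6 kb (44.7 and 82.1), and one of 4.2 kb on chromosome 12 from 25782401 to 25786600, paired with 9.4 kb (63.1 and 91.9). By the bounds of the wider R1 partner, the cases on chromosomes 10, 4 and 12 met H3K27me3 of both lines and so did not keep their class. The case on chromosome 15 kept it. The remaining cases were short weak regions of 0.6 kb in CGR8. One on chromosome 5 from 125205201 to 125205800 was CGR8-only (2.68 and 27.1) and paired with 1.0 kb, and one on chromosome 11 from 45740001 to 45740600 was R1-only (1.71 and 28.1) and paired with 0.8 kb.

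Among the widest H3K4me3 regions, H3K27me3 covered from a single window to more than 50% of the region. The widest CGR8-only region, 13.2 kb on chromosome 5 from 123581601 to 123594800, ranked 96 in CGR8 and 53 in R1, and its CGR8 H3K27me3 of 2.8 kb overlapped it by 600 bp with 1.09 times the lowest score. Others were the region of chromosome 8 described above and one of 5.8 kb on chromosome 7 from 137392801 to 137398600, which met a CGR8 H3K27me3 region of 9.4 kb (4.96 times the lowest) by 200 bp and was of middling H3K4me3 strength (percentile 47.4 in CGR8 and 46.3 in R1). The widest R1-only region, 13.8 kb on chromosome 11 from 97514801 to 97528600, ranked 340 and 446, with an R1 H3K27me3 of 5.0 kb wholly inside it (1.07 times the lowest). Another on chromosome 6 from 30120801 to 30130800 ranked 207 and 177 and shared 5600 bp with an R1 H3K27me3 region of 8.6 kb at 3.06 times the lowest. That region was 245.6 kb from any CGR8 H3K27me3. One on chromosome 10 from 80596601 to 80608200 ranked 379 and 413 (1.32 times the lowest). Of all CGR8-only regions, 349 (62.8%) were covered by H3K27me3 over at least 50% of their length, and of R1-only regions 400 (68.5%), beside 92.1% and 92.3% of those with H3K27me3 in both lines.

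Few of the regions shared an H3K27me3 region. The 556 CGR8-only regions lay in 547 H3K27me3 regions, 9 of which held 2 of them, and the 584 R1-only regions lay in 566, 18 of which held 2. On chromosome 7 a CGR8 domain of 27.4 kb from 135388401 to 135415800 (8.56 times the lowest) held H3K4me3 regions from 135389801 to 135391800 and from 135413801 to 135414800, with R1 calls between them that covered 33.6% of the domain. On chromosome 5 both directions lay side by side: an R1 H3K27me3 region from 122292201 to 122297000 held R1-only regions from 122291601 to 122294600 and from 122295601 to 122296800, and a CGR8 region from 122299401 to 122304000 held CGR8-only regions from 122297601 to 122300600 and from 122302401 to 122303800. Both of these H3K27me3 regions were weak, at 1.09 and 1.18 times the lowest score. Elsewhere a single H3K27me3 region reached from one H3K4me3 region into the next. On chromosome 6 a CGR8 region of 3.0 kb, from 134867001 to 134870000, met the end of a weak H3K4me3 region (percentile 28.2 in CGR8) and the start of a strong one (91.8), with no R1 H3K27me3 within 50 kb. On chromosome 3 an R1 region of 7.0 kb, from 87749401 to 87756400 (4.00 times the lowest score), covered one H3K4me3 region wholly and 1000 bp of the next. On chromosome 5 an R1 region of 5.2 kb, from 115848601 to 115853800, met H3K4me3 by 600 bp at each end. Successive regions within 50 kb of each other formed 23 pairs of CGR8-only, 48 pairs of R1-only and 37 pairs of opposite direction. The next shared H3K4me3 region to either side had H3K27me3 in neither line in 55.7% of cases for CGR8-only regions and 62.8% for R1-only regions, and in both lines in 37.3% and 29.1%, beside 67.2% and 27.6% of all shared regions. It was single-line in the same direction in 4.50% and 5.67% of cases, beside 2.53% and 2.65% of all shared regions, and in the opposite direction in 2.52% and 2.40%. The same-direction shares can count a single H3K27me3 call from both of its members, where 1 of the 9 or 18 regions above holds neighbours. The 23 and 48 same-direction pairs within 50 kb can do so too, and no expected number is set beside them. Pairs in a single call were not taken out, so neither the shares nor the pairs show that separate calls cluster.

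Chromosomes differed in the balance of the directions. CGR8-only regions made up 4.23% of shared regions on chromosome 8 (52 of 1229) and between 1.74% and 3.66% on the others, and R1-only regions 1.87% on chromosome 8 (23) and between 2.06% and 3.52% on the others. Chromosome 8 had 1067 H3K27me3 regions in CGR8 and 798 in R1, a ratio of 1.34. Chromosome 18 had the same ratio to this precision and the other autosomes lower ones. The median H3K4me3 log2 score ratio of chromosome 8, R1 over CGR8, was -0.06, against -0.03 on the other autosomes together. Chromosome 4 had the same value to this precision. Without chromosome 8 there were 504 CGR8-only and 561 R1-only regions. R1-only regions were most frequent on chromosome 19 (27 of 767, 3.52%, with 14 CGR8-only) and chromosome 11 (62 of 1855, 3.34%, with 39).

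Which direction is the larger depends on how the lists are made comparable. With the lowest-scoring CGR8 H3K27me3 regions dropped until both lists were equally long, there were 439 CGR8-only and 719 R1-only regions. With both lists limited at the higher of their lowest scores there were 714 and 407. The near-equal counts of 556 and 584 therefore do not measure a balance between the lines. The difference in H3K4me3 strength kept its direction under all 13 alternatives, with median CGR8 percentiles of 34.7 to 71.2 for CGR8-only and 58.2 to 74.1 for R1-only regions. It was narrowest, 71.2 against 74.1, where the lower-scoring 50% of the H3K4me3 list was left out.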

How the data were processed

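Chromatin was immunoprecipitated for H3K27me3 and H3K4me3 in 1 library of CGR8 and 1 of R1 each, and groups were taken from the sample titles. Bowtie2 2.0.2, SICER 1.1, bedtools 2.20.1 and build mm9 are named per the submitters' processing notes. Step order, settings, threshold and any control were not given in the sources used here. For each library the authors deposited 1 list with a score for each region, which has no stated unit or formula and is theirs throughout. Regions lie on a grid of 200 bp, so bounds are no finer than that. Starts and ends were counted from 1, an overlap of 1 bp was enough, and an H3K4me3 region with several partners was paired with the one of largest overlap. The mean reads per window is inferred: it is the Poisson mean under which the score of every region of at most 400 bp is met within 1e-06.

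Members, measures and alternatives were chosen with earlier results of these data known. The rule used the H3K27me3 calls, so their scores are a description. Regions named by position were, for each direction, the 5 of highest H3K27me3 score, the 5 highest with no partner in the other line, the 3 largest H3K4me3 rank differences each way, the first 3 H3K27me3 regions with most members and the 3 widest. Regions just inside the score limit, the medians of H3K4me3 strength and the limit of 4 kb were chosen after values were seen. No test between groups was made. Sorting into classes was checked on simulated lists. The gene table at hand is on GRCm38.p6, not mm9, so no gene or promoter sequence was assigned. Tools were pandas 2.3.3, numpy 2.4.6 and scipy 1.17.1 under Python 3.11.15, with matplotlib 3.10.9 for figures.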

Additional observations from a re-analysis of the deposited data

How the results depend on the processing

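No paired analysis was possible because each line and mark has 1 library and no test between groups was made. Of 154 values under 13 alternatives, 112 stayed within 1.5 times the count or within the 95% binomial interval of the share or median, and 42 moved. The contrast in H3K4me3 strength kept its direction in each, but with overlapping intervals in the higher-scoring 50% of the H3K4me3 list. With at least 50% of the H3K4me3 region covered, the shares with H3K27me3 of the other line within 5 kb were 50.7% (CGR8-only) and 44.1% (R1-only), which then include partial overlaps. The median scores over the lowest were 1.63 and 1.60, and 34.7% of R1-only regions had H3K27me3 of at most 4 kb. With the higher-scoring 50% of each H3K27me3 list, the shares within 5 kb were 24.3% and 17.3%, the median scores 2.56 and 2.59 and the shares of at most 4 kb 4.50% and 16.8%. That alternative drops weak calls from both lists, so only 184 and 149 of its 489 and 481 regions were those of the full lists. With lists of equal length, CGR8-only values were 41.5% within 5 kb, a median score of 1.67 and 11.6% of at most 4 kb. With a common lowest score, 27.6% and 30.0% were within 5 kb, so that the order of the directions turned, and R1-only values were a median score of 1.67 and 35.4% of at most 4 kb. With scores of at least 2 times the lowest required in the line with H3K27me3, 169 and 143 regions were left, 69.8% and 57.3% of them within 5 kb, with median scores of 3.14 and 2.90 and 1.18% and 11.9% of at most 4 kb. The R1-only median H3K4me3 percentile was then 58.2 and its rank difference -2.77. Requiring no H3K27me3 of the other line within 5 kb left 356 CGR8-only and 440 R1-only regions, with median scores of 1.29 and 1.31, 21.9% and 53.0% of at most 4 kb and an R1-only median percentile of 65.8. In the higher-scoring 50% of the H3K4me3 list there were 184 and 374 regions with median percentiles of 71.2 and 74.1 and 27.7% and 54.8% of at most 4 kb, 17.1% of R1-only regions lay within 5 kb, and the CGR8-only median score was 1.34. Where the construction does not show it, the cause was not tested. Leaving out chromosome 8 was chosen after seeing the data.

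More than 50% of the regions in each direction rest on an H3K27me3 call under 1.5 times the lowest score, and the other line may carry the mark below its own limit. The part of depth in this was not tested.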

Other observations

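Outside the autosomes and in the block left out, the directions were less even. On the X chromosome 7 of 598 shared H3K4me3 regions (1.17%) were CGR8-only and 17 (2.84%) R1-only, and 85 (14.2%) had H3K27me3 in both lines. In the block of chromosome 1, 17 of 67 shared regions (25.4%) were R1-only, with a median H3K27me3 score of 1.82 times the lowest, and 0 were CGR8-only, which allows a share of up to 4.48%. The block is one where R1 has many H3K27me3 calls that CGR8 lacks, so its R1-only direction is not a separate observation. The counts for the X chromosome and the block were not tested.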
